A study of Mus musculus with 12 samples.

Results

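The set described here is p53 and its direct regulators: Trp53, which encodes p53, its processed pseudogene Trp53-ps, and 7 genes whose products act directly on p53 or with it, Mdm2, Mdm4, Ppm1d, Trp53bp1, Trp53bp2, Atm and Chek2. They were chosen by their symbols, 9 of the 55471 genes listed, and all 9 passed the filter on low counts that left 14610 genes for testing. RNA of colonic crypts was sequenced from 12 female mice aged 8 weeks, 3 in each of 4 groups, with 1 library per mouse. The strain on the labels is C57BL/6J. The crypts were released with EDTA, which leaves behind much of the tissue around the epithelium. In CBPWTp53-floxed mice CBP is unaltered and both Trp53 alleles are floxed but intact, so these are taken as the controls here. CBPAAp53-floxed mice carry a germline knock-in in which 2 serines of CBP, Ser1383 and Ser1387, are alanines, made in embryonic stem cells. The paper's accounts of the strain of these cells differ, naming either a C57BL/6 substrain or another strain with later backcrossing. In CBPWTp53ΔIEC and CBPAAp53ΔIEC mice the floxed Trp53 is deleted by Cre under the Villin promoter, which is active in intestinal epithelial cells, while leukocytes and stroma keep the gene. All 4 groups therefore share the floxed allele, and which exons it removes is not given in the sources used here. The deleted mice came from a further cross to Villin-Cre mice, and the paper names littermate controls within each p53 state. Between deleted and floxed mice, the deletion, Cre and the litters therefore cannot be told apart.

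The p53 protein is a transcription factor that is made and destroyed continuously. MDM2 is the ubiquitin ligase that marks it for the proteasome, MDM4 is a relative of MDM2 that covers the activation domain of p53, and PPM1D (WIP1) is a phosphatase that removes the phosphates placed on p53 after DNA damage. Mdm2 and Ppm1d are themselves targets of p53, which closes negative feedback loops. The damage signal runs the other way, from the kinase ATM to the kinase CHK2, the product of Chek2, both of which phosphorylate p53. Trp53bp1 encodes 53BP1, a p53-binding protein that gathers at DNA double-strand breaks, and Trp53bp2 encodes ASPP2, which binds p53 and favours its apoptotic targets.

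Reads on genes numbered 11177430 to 18029125 per library. The epithelial character of the samples held in every library, with Epcam between 1011 and 1477 TPM (a level scaled to gene length and library size) and the summed TPM of 15 epithelial markers between 24326 and 43575. The 16 leukocyte markers summed to 8.76 to 18.2 TPM, 12 stromal markers to 4.96 to 9.05 TPM and 8 endothelial markers to 1.34 to 2.22 TPM. The endothelial marker Cdh5 was at 0 in every library and Col1a1, a fibroblast collagen, reached at most 0.149 TPM. Of the 12 libraries, 4 stood apart in transcripts known from the small intestine, a split made after seeing the data. CBPAAp53-floxed replicate 2, CBPWTp53ΔIEC replicate 1 and CBPAAp53ΔIEC replicates 1 and 3 had Apoa1 at 143 TPM or more, against at most 3.88 TPM in the other 8, and the Paneth cell defensin Defa17 at 30.2 TPM or more, against at most 1.95. The bile acid binding protein Fabp6 was at 217 TPM or more in them and at most 20.1 TPM in the others. The sum over all 17 small intestine and Paneth markers did not separate them, with 4884 to 19417 TPM in the 4 and 450 to 12108 TPM in the other 8, so the phrase libraries with small-intestinal transcripts rests on the named genes. The library of CBPAAp53-floxed replicate 1 had Xist at 0.683 TPM where the other 11 had 65.9 to 168, although all mice were female and Y-linked transcripts were as low in it as in the others.

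Trp53 (ENSMUSG00000059552, plus strand of chromosome 11, 69580359 to 69591873 in GRCm38) was lower in every deleted library than in any floxed one. In CBPWTp53-floxed crypts it stood at 24.6, 28.6 and 30.4 TPM, and in CBPAAp53-floxed crypts at 33.5, 30.7 and 23.3 TPM. After deletion it was 5.44, 3.26 and 4.15 TPM in CBPWTp53ΔIEC and 5.05, 4.66 and 6.13 TPM in CBPAAp53ΔIEC crypts. The highest of the 6 deleted libraries thus lay far below the lowest of the 6 floxed ones, and the groups with and without the deletion did not overlap. Mean levels were 28.5 ± 3.89 TPM (SD, n = 6) with the floxed and 4.78 ± 1.01 TPM (SD, n = 6) with the deleted gene, which left 16.8% of the RNA (exact permutation test, two-sided, p = 0.00216, the smallest that 6 mice against 6 allow). The remainder was 15.4% of the floxed mean in CBPWT and 18.1% in CBPAA mice. Single deleted libraries ranged from 11.7% to 19.5% in CBPWT and from 16.0% to 21.0% in CBPAA mice. With 3 mice against 3, the exact permutation p within each CBP genotype was 0.100, the smallest possible.

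In edgeR's quasi-likelihood test over all genes, Trp53 fell by 2.64 on the log2 scale in CBPWT mice (standard error 0.22, Benjamini-Hochberg adjusted p = 0.000375) and fell by 2.58 in CBPAA mice (standard error 0.22, adjusted p = 0.000401). The difference between these falls, the interaction of CBP genotype and deletion, was 0.05 with a 95% interval of -0.60 to 0.71 (edgeR adjusted p = 0.955), so a difference between the falls in the 2 CBP genotypes was not detectable at this spread. Without the 4 libraries with small-intestinal transcripts the averaged log2 fold change was -2.87 (adjusted p = 4.55e-10 from edgeR) and 14.3% of the floxed level remained. Leukocyte and stromal cells keep Trp53, so the summed levels of their markers bear on its reads. The 16 leukocyte markers summed to 12.0 to 14.2 TPM in CBPWTp53ΔIEC and 12.8 to 18.2 TPM in CBPAAp53ΔIEC crypts, against 8.76 to 16.8 TPM in floxed crypts. The 12 stromal markers summed to 8.15 to 9.05 TPM in CBPWTp53-floxed and, without overlap, 4.96 to 7.03 TPM in CBPWTp53ΔIEC crypts, and to 4.96 to 8.57 TPM in CBPAAp53-floxed and 5.79 to 6.91 TPM in CBPAAp53ΔIEC crypts. Of these markers, 10 leukocyte and 3 stromal ones passed the filter on low counts, so the stromal sum in particular rests on genes of few reads. The lack of overlap between 3 libraries and 3 was not tested. The part of leukocytes and stroma in the remaining Trp53 reads was not tested either. In whole crypts, fewer cells with the transcript and less transcript per cell cannot be told apart, and neither can RNA of an unrecombined allele and RNA of the deleted allele.

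**Figure D1:**
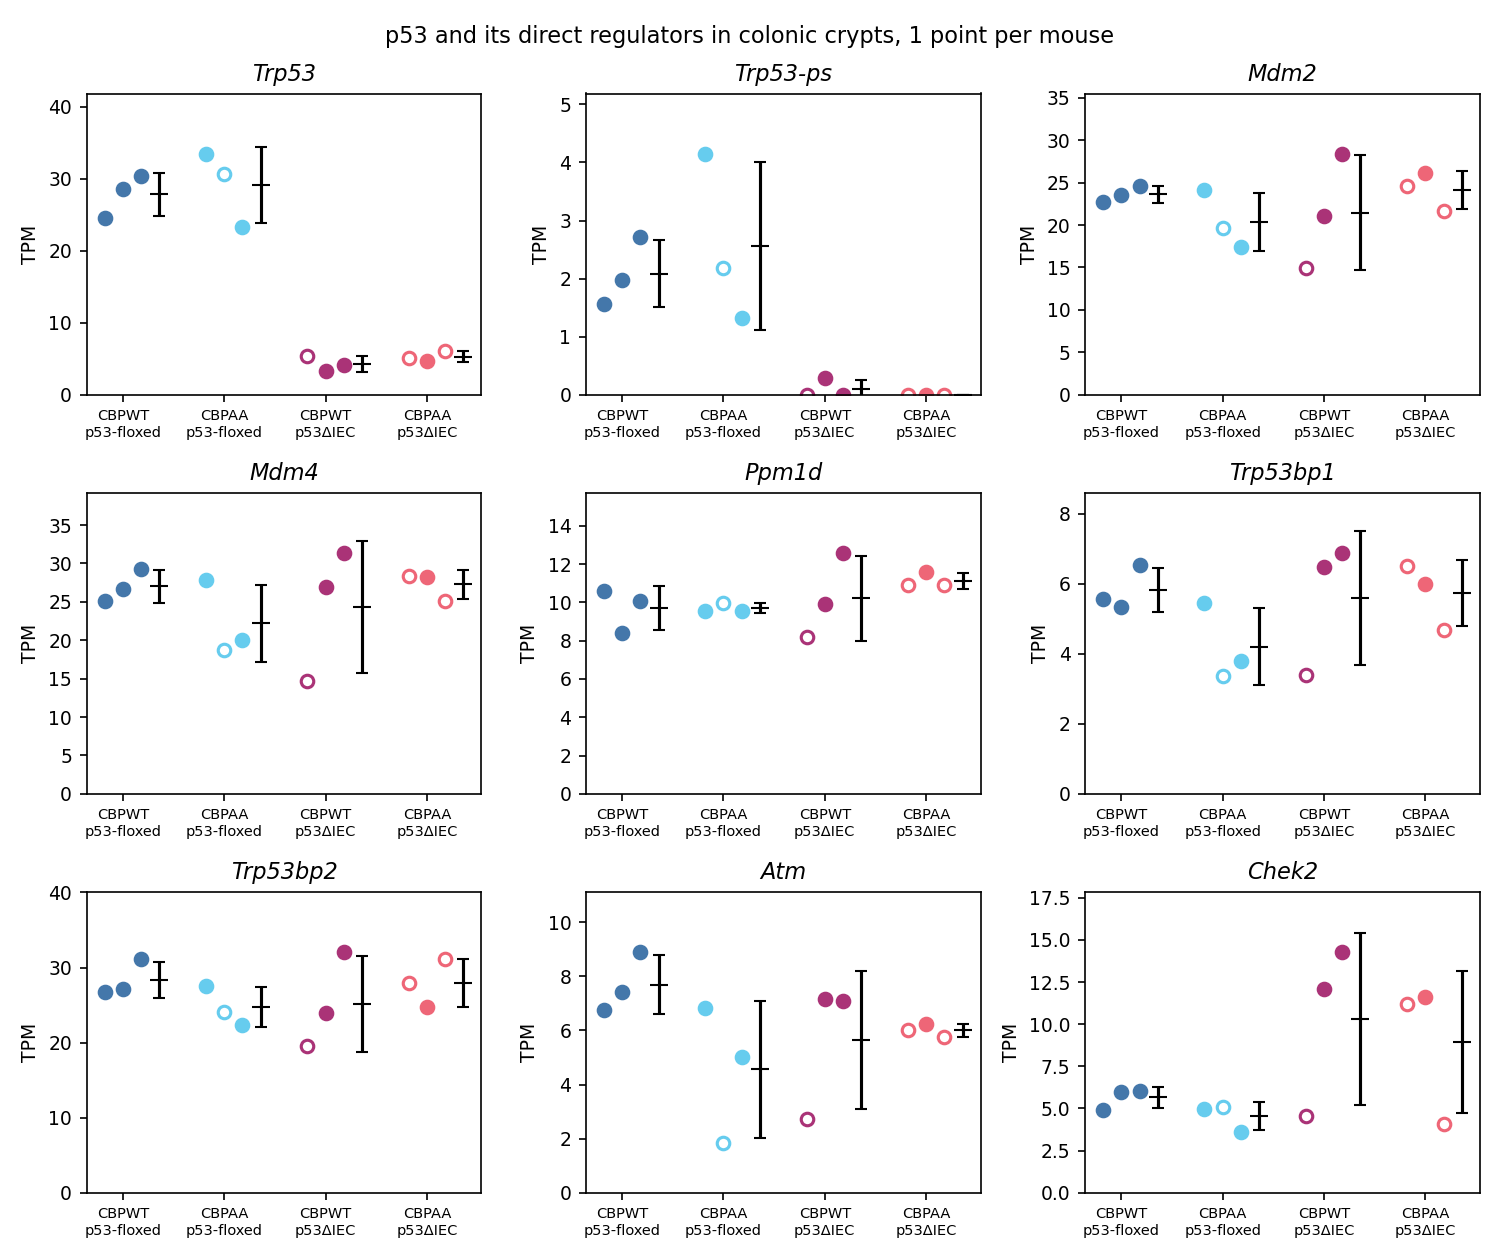
Levels of the 9 members in TPM on the vertical axis, 1 point per mouse, with the mean and SD of the 3 mice beside each group; open points are the 4 libraries with small-intestinal transcripts. Trp53 and Trp53-ps separate the deleted from the floxed crypts, Chek2 is at 11.2 TPM or more in 4 of the 6 deleted libraries, and the 6 deleted and 6 floxed libraries overlap for the other 6 members.

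Trp53-ps (ENSMUSG00000090704, plus strand of chromosome 17, 54419680 to 54420841 in GRCm38) is an intronless copy of the Trp53 mRNA. Over 1154 aligned positions it matched a Trp53 transcript at 1110 (96.2%), with 44 mismatched positions and 5 gaps. The alignment covered bases 167 to 1328 of the 1772 of that transcript. Within this part a read has to cross a mismatch or gap to be told apart by its letters. Of its windows of 50 bases 13.8% were found letter for letter in a Trp53 transcript, of its windows of 100 bases 0.659%, and of its windows of 150 bases 0. A stretch of 60 bases from exon 4 of the first annotated Trp53 transcript (chr11:69587398-69587457, plus strand) and its copy in Trp53-ps (chr17:54419802-54419861, plus strand), both read from GRCm38, shows how close they are, with the 2 differing bases in capitals.
Trp53: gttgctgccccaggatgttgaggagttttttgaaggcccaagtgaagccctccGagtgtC
Trp53-ps: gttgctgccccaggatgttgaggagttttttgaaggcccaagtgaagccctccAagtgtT

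The pseudogene was counted with 8, 15 and 21 reads in CBPWTp53-floxed, 24, 19 and 8 reads in CBPAAp53-floxed, 0, 2 and 0 reads in CBPWTp53ΔIEC and 0, 0 and 0 reads in CBPAAp53ΔIEC libraries. It therefore followed Trp53, although it lies on another chromosome than the floxed allele. Scaled to library size, the 2 reads of CBPWTp53ΔIEC mice were 5.06% of the 44 reads of their controls, with an exact binomial 95% interval of 0.594% to 19.4% that covers counting error only. In CBPAAp53ΔIEC mice 0 reads stood against 51 in CBPAAp53-floxed mice, with an interval of the same kind of 0% to 7.43%. With the 0 reads set to a floor of 3 over the 3 libraries, the level was 17.2-fold lower. That figure leaves out the counting error of the 51 reads and is no lower bound. Reads of the 3 mice of each group were pooled for these values. For every 100 reads on Trp53 there were 2.18 on the pseudogene in CBPWTp53-floxed and 2.43 in CBPAAp53-floxed mice. At these ratios the Trp53 reads left after deletion would go with 6.03 reads in CBPWTp53ΔIEC and 8.49 reads in CBPAAp53ΔIEC mice, against the 2 and 0 counted. The edgeR adjusted p was 0.0316 in CBPWT mice, 0.0887 in CBPAA mice and 0.00781 averaged over both. The call in CBPWT mice was lost without any of the 3 CBPWTp53-floxed libraries and without CBPWTp53ΔIEC replicate 2 or 3 (adjusted p 0.0780 to 0.154 from edgeR). In CBPAA mice the call was gained without CBPAAp53ΔIEC replicate 3 (edgeR adjusted p = 0.0184) and without the filter on low counts (adjusted p = 0.000544). Reads of the gene and its pseudogene may have been split between them in counting, so the level of Trp53-ps is uncertain. On the CPM scale (read counts scaled to library size alone), 16.5% of the floxed level of Trp53 remained, and 16.2% when the reads of both were summed.

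A gene was called where its log2 fold change exceeded 0.5 in size at an adjusted p under 0.05. By this rule 2 of the 9 members, Trp53 and Trp53-ps, were called for the deletion in CBPWT mice, where 3.15% of all genes tested were called. In CBPAA mice 1 member, Trp53, was called, against 0.0274% of all genes. Averaged over both CBP genotypes the same 2 members as in CBPWT were called, against 3.50% of all genes. Trp53 is the deleted gene and may share reads with Trp53-ps, so these calls are no excess of the set. Of the other 7 members 0 were called in each of these comparisons. At such shares of all genes, 0 of 7 is no result about the regulators either. Trp53 and Trp53-ps were also the only members whose library-size scaled counts (CPM) did not overlap between the 6 deleted and the 6 floxed libraries, as was so for 1.76% of all genes.

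Among the proteins that restrain p53, Mdm2 (ENSMUSG00000020184, minus strand of chromosome 10, 117688875 to 117710758) was measured at 22.7, 23.5 and 24.6 TPM in CBPWTp53-floxed and 14.9, 21.1 and 28.4 TPM in CBPWTp53ΔIEC crypts. It was 24.1, 19.7 and 17.4 TPM in CBPAAp53-floxed and 24.6, 26.1 and 21.7 TPM in CBPAAp53ΔIEC crypts. Deleted and floxed libraries overlapped in both CBP genotypes, and the lowest value belonged to CBPWTp53ΔIEC replicate 1, a library with small-intestinal transcripts. The averaged log2 fold change of Mdm2 was -0.01 with a 95% interval of -0.19 to 0.17 (edgeR adjusted p = 0.965). Within CBPWT mice it was -0.13 (interval -0.38 to 0.12) and within CBPAA mice 0.12 (interval -0.13 to 0.37).

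Mdm4 (ENSMUSG00000054387, minus strand of chromosome 1, 132959484 to 133030561) was measured at 25.1, 26.7 and 29.3 TPM in CBPWTp53-floxed and 14.7, 26.9 and 31.4 TPM in CBPWTp53ΔIEC crypts. In CBPAAp53-floxed crypts it was 27.9, 18.7 and 20.0 TPM and in CBPAAp53ΔIEC crypts 28.4, 28.3 and 25.1 TPM. The averaged log2 fold change was 0.01 (interval -0.22 to 0.24, edgeR adjusted p = 0.969). Again the lowest of the 12 values was that of CBPWTp53ΔIEC replicate 1, and the groups overlapped. The Mdm4 locus holds a small pseudogene, Gm29257, that shares no exon with it and was counted with at most 6 reads in any library.

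Ppm1d (ENSMUSG00000020525, plus strand of chromosome 11, 85311244 to 85347066) lay between 8.19 and 12.6 TPM over all 12 libraries. It was 9.71 ± 0.744 TPM (SD, n = 6) in floxed and 10.7 ± 1.51 TPM (SD, n = 6) in deleted crypts. Its averaged log2 fold change was 0.08 (interval -0.13 to 0.28, edgeR adjusted p = 0.670). Both feedback genes of p53, Mdm2 and Ppm1d, thus had intervals that included 0 and stayed within 0.5 on the log2 scale. The 250 bases before their RefSeq start sites (GRCm38.p6) are shown because each held 1 p53 half-site, in capitals, at position -186 of Mdm2 (chr10:117710759-117711008, minus strand) and -132 of Ppm1d (chr11:85311004-85311253, plus strand), counted from the start.
Mdm2: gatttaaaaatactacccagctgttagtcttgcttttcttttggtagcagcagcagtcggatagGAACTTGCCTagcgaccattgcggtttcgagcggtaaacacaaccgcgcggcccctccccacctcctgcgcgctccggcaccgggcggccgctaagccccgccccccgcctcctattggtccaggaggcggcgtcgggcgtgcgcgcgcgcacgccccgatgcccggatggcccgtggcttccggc
Ppm1d: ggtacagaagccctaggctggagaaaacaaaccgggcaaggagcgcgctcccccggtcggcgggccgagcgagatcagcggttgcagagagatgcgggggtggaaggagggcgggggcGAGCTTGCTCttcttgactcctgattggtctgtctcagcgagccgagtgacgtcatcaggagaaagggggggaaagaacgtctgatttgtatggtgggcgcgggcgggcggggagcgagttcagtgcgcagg
A half-site was found in 3 of the 9 upstream sequences of the 8 members that RefSeq's table held, those of Trp53, Mdm2 and Ppm1d, and in 7.13% of the 32851 upstream sequences of the same length in the whole table. The search read both strands, and a match is a description of letters and not of binding. The p53-responsive promoter of Mdm2 is known to lie in its first intron, outside this window.

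Of the p53-binding proteins, Trp53bp2 (ENSMUSG00000026510, plus strand of chromosome 1, 182409172 to 182462432) stood at 19.5 to 32.1 TPM over the 12 libraries. Its mean was 26.5 ± 3.00 TPM (SD, n = 6) in floxed and 26.6 ± 4.77 TPM (SD, n = 6) in deleted crypts, and the averaged log2 fold change was -0.05 (interval -0.22 to 0.12, edgeR adjusted p = 0.752). Trp53bp1 (ENSMUSG00000043909, minus strand of chromosome 2, 121193281 to 121271407) was lower, at 3.37 to 6.89 TPM. The 2 lowest values were 3.37 TPM in CBPAAp53-floxed replicate 2 and 3.39 TPM in CBPWTp53ΔIEC replicate 1, both libraries with small-intestinal transcripts. Its averaged log2 fold change was 0.14 (interval -0.13 to 0.40, edgeR adjusted p = 0.561). Exons of Tubgcp4 lie on the opposite strand over exons of Trp53bp1, and since the strand setting of the counting is not stated, its level is uncertain.

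Atm (ENSMUSG00000034218, minus strand of chromosome 9, 53439149 to 53536740), the kinase at the head of the damage signal, was 6.77, 7.41 and 8.91 TPM in CBPWTp53-floxed and 6.84, 1.84 and 5.01 TPM in CBPAAp53-floxed crypts. With the deletion it was 2.71, 7.16 and 7.08 TPM in CBPWTp53ΔIEC and 6.02, 6.24 and 5.77 TPM in CBPAAp53ΔIEC crypts. Only CBPAAp53-floxed replicate 2 and CBPWTp53ΔIEC replicate 1 were under 5 TPM, the same libraries that were lowest for Trp53bp1, and both held small-intestinal transcripts, whose part in these levels was not tested. The averaged log2 fold change of Atm was -0.08 with an interval of -0.67 to 0.51 (edgeR adjusted p = 0.889). Without the 4 libraries it was -0.13 with an interval of -0.34 to 0.08.

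Chek2 (ENSMUSG00000029521, plus strand of chromosome 5, 110839979 to 110874145), which lies downstream of ATM, was, beside Trp53 and Trp53-ps, the one member whose averaged log2 fold change was over 0.5 in size. It was 4.94, 6.00 and 6.04 TPM in CBPWTp53-floxed and 4.96, 5.10 and 3.61 TPM in CBPAAp53-floxed crypts. With the deletion it was 4.56, 12.1 and 14.3 TPM in CBPWTp53ΔIEC and 11.2, 11.6 and 4.10 TPM in CBPAAp53ΔIEC crypts. Of the 6 deleted libraries, 4 were above every floxed library, while CBPWTp53ΔIEC replicate 1 and CBPAAp53ΔIEC replicate 3 lay within the floxed range, so the groups overlapped. The log2 fold change was 0.85 (standard error 0.35, interval 0.08 to 1.61) in CBPWT and 0.83 (standard error 0.36, interval 0.06 to 1.61) in CBPAA mice, with edgeR adjusted p of 0.193 and 0.381. Averaged over both it was 0.84 (standard error 0.25, interval 0.30 to 1.38, edgeR adjusted p = 0.0743), which did not pass the threshold.

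The call for Chek2 turned on the 2 deleted libraries with low values, so leaving either out was bound to raise the fold change. The fit without 4 libraries leaves out both. The fits without them describe this dependence and are no separate support for a rise. Without CBPWTp53ΔIEC replicate 1 the averaged log2 fold change was 0.98 (edgeR adjusted p = 0.0118), and without CBPAAp53ΔIEC replicate 3 it was 1.01 (edgeR adjusted p = 0.00480). Within each CBP genotype the same omissions gave 1.12 in CBPWT (edgeR adjusted p = 0.0478) and 1.17 in CBPAA mice, the latter just past the threshold. DESeq2 on all 12 libraries gave 0.83 with an adjusted p of 0.0165, with 3 of 9 members called where it called 4.99% of all genes. Both low libraries were among the 4 with small-intestinal transcripts, but CBPAAp53ΔIEC replicate 1, the other deleted library of that kind, had 11.2 TPM. Without all 4, Chek2 was higher after deletion by 1.12 on the log2 scale in CBPWT mice (edgeR adjusted p = 5.17e-05), by 1.30 in CBPAA mice (adjusted p = 0.00108) and by 1.21 on average (adjusted p = 4.05e-06). This fit left CBPAAp53ΔIEC with 1 library, whose spread was taken to be that of the other groups. It called 3 of the 9 members, Trp53, Trp53-ps and Chek2, in each of these comparisons, where 11.4%, 6.92% and 11.1% of all genes were called.

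**Figure D2:**
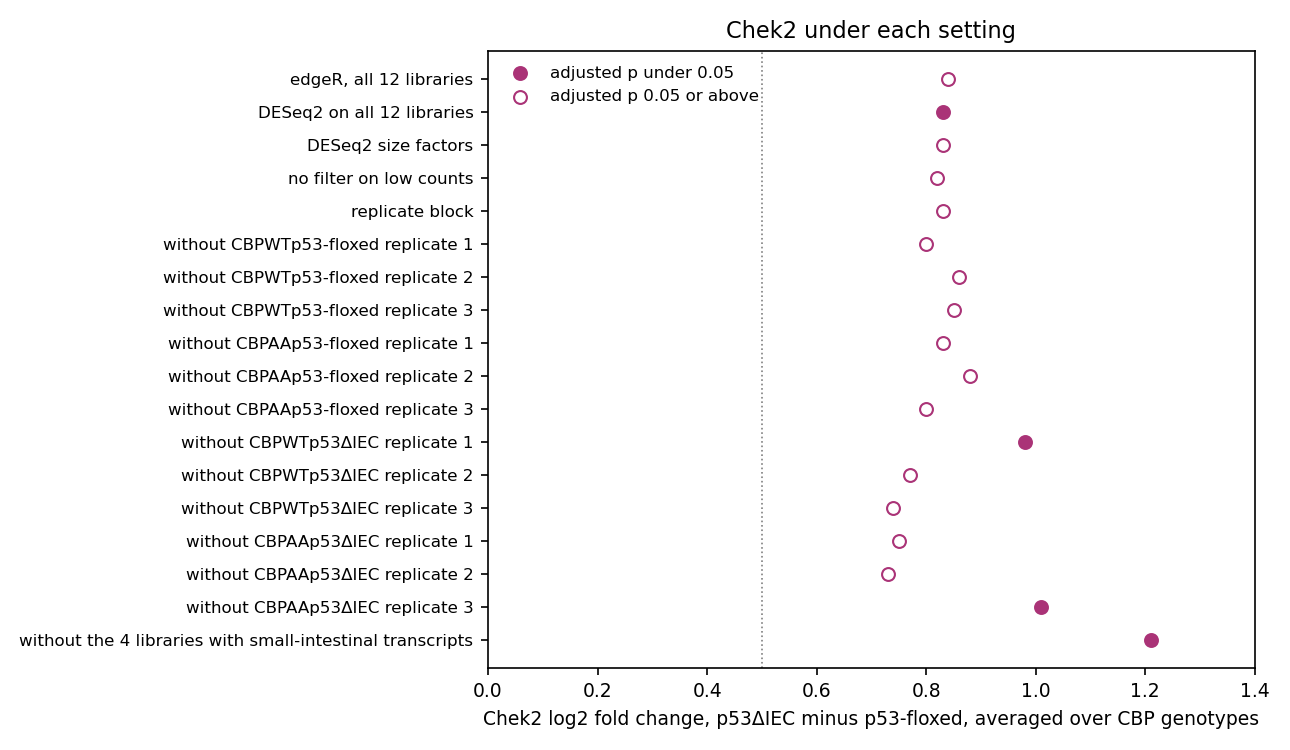
Averaged log2 fold change of Chek2 (deleted minus floxed, horizontal axis) under each setting, 1 point per setting, filled where the adjusted p was under 0.05; the dotted line is the fold cutoff of 0.5. The value lies between 0.73 and 1.21 throughout, and the filled points are DESeq2, the fits without CBPWTp53ΔIEC replicate 1 or CBPAAp53ΔIEC replicate 3, and the fit without 4 libraries.

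Transcripts of dividing cells moved with Chek2. The summed TPM of 20 proliferation genes, none of them a member, was 271 to 391 in the 6 floxed libraries. In CBPWTp53ΔIEC crypts it was 444, 918 and 976 TPM and in CBPAAp53ΔIEC crypts 782, 755 and 319 TPM. The 4 deleted libraries with high Chek2 were those with sums of 755 TPM or more, and the 2 with low Chek2 had 444 and 319 TPM. All 20 genes of the list were called higher in the averaged comparison, with a median log2 fold change of 1.30 where that of all genes tested was 0.01. Within CBPWT mice 18 of the 20 were called higher (median 1.67), and within CBPAA mice 0 were called by edgeR and 3 by DESeq2 (median 0.91, with 15 at an unadjusted p under 0.05). Without the 4 libraries with small-intestinal transcripts 17 were called higher within CBPAA mice (median 1.17). The part of proliferation in the level of Chek2 was not tested. The 250 bases before the RefSeq start of Chek2 (chr5:110839733-110839982, plus strand, GRCm38.p6) are shown with the 2 CCAAT boxes they held in capitals. This motif is found in many promoters, those of cell cycle genes among them.
Chek2: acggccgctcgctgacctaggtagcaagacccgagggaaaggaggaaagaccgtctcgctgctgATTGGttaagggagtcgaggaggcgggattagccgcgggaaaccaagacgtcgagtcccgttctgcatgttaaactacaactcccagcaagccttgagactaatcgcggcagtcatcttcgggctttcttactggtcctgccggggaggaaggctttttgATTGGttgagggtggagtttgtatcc
CCAAT, read on both strands, was found in 5 of the 9 upstream sequences of the members and in 33.8% of all 32851. The 5 were those of Trp53, Mdm2, Ppm1d, Atm and Chek2. A part of the motif in the level of Chek2 was not tested. The cell cycle homology region, searched as TTTGAA on both strands, was in 0 of the 9 and in 16.0% of all.

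**Figure D3:**
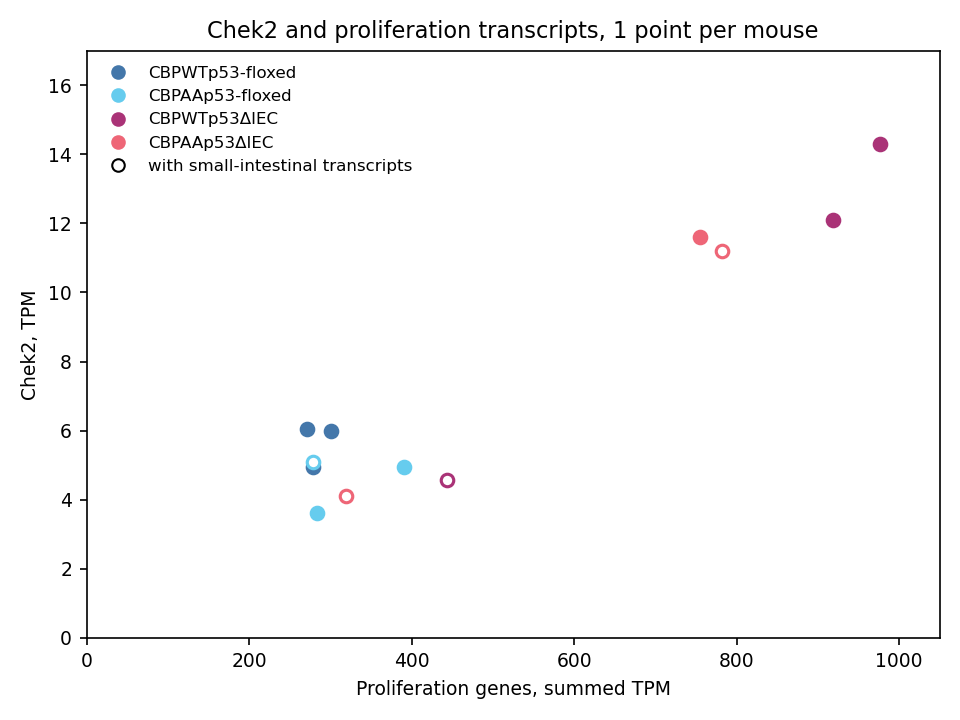
Chek2 in TPM (vertical axis) against the summed TPM of 20 proliferation genes (horizontal axis), 1 point per mouse coloured by group; open points are the 4 libraries with small-intestinal transcripts. The 4 deleted libraries with high Chek2 sit at 11.2 TPM or more with sums of 755 TPM or more, and the other 8 lie at 6.04 TPM or less with sums of 444 TPM or less.

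No member passed the test for CBP genotype. With all libraries in the fit, 0 of the 9 were called by edgeR and 0 by DESeq2 in CBPAAp53-floxed against CBPWTp53-floxed crypts. There, 0 had an unadjusted p under 0.05, and edgeR called 0% of all genes. In CBPAAp53ΔIEC against CBPWTp53ΔIEC crypts the same 3 counts were 0, against 0.00684% of all genes. They were 0 too for CBP genotype averaged over p53 states and for the interaction, each against 0.00684% of all genes. Trp53 itself was higher in CBPAA mice by 0.18 on the log2 scale with the floxed gene (interval -0.25 to 0.62) and by 0.24 with the deleted gene (interval -0.25 to 0.73), neither past the threshold (edgeR adjusted p = 0.797 and 0.985). The member with the smallest p was Trp53bp1 in floxed crypts, at -0.36 (interval -0.74 to 0.02, edgeR adjusted p = 0.618). Atm had the largest log2 difference among the protein-coding members there, -0.65 with an interval of -1.49 to 0.18 (edgeR adjusted p = 0.649), and it was -0.28 without CBPAAp53-floxed replicate 2. The fit without the 4 libraries with small-intestinal transcripts gave -0.28 for Atm in floxed crypts and 0.26 for Trp53 averaged over p53 states. The intervals of both left out 0 in that fit, which has 1 CBPAAp53ΔIEC library, and neither was called. The interaction for Atm was 0.74 (interval -0.43 to 1.92) and that for Chek2 was -0.01 (interval -1.10 to 1.08), so for both kinases sizeable differences between the CBP genotypes lie within the intervals. Crebbp, which encodes CBP, was between 5.98 and 11.5 TPM in all libraries and was not called in any comparison.

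**Figure D4:**
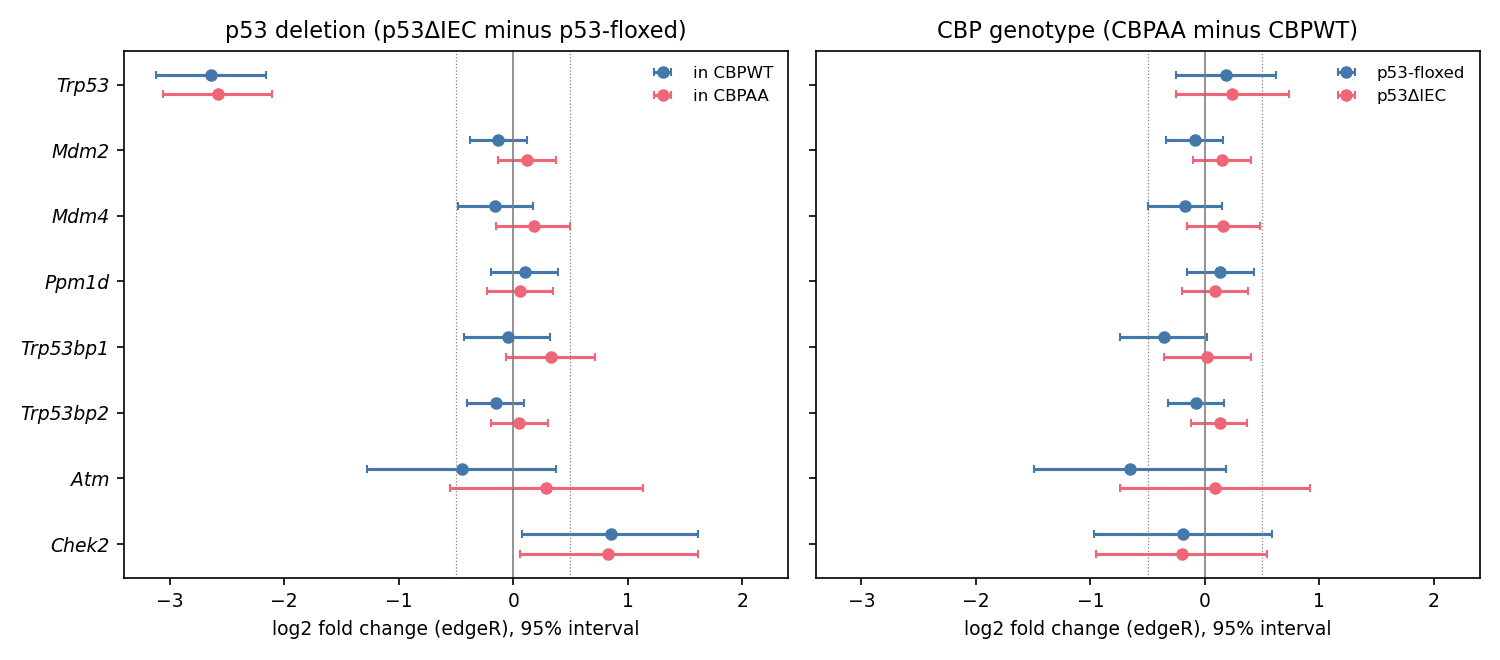
Log2 fold changes of the 8 protein-coding members (horizontal axis) with 95% intervals from edgeR, for the deletion in each CBP genotype on the left and for CBPAA minus CBPWT in each p53 state on the right; dotted lines mark the fold cutoff of 0.5. Trp53, for the deletion, is the one member whose whole interval lies beyond the cutoff, and the intervals of Atm and Chek2 are the widest of the others.

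Ordered by mean level in the floxed crypts, on the TPM scale, the members fell into a higher and a lower set. Trp53 was at 28.5 ± 3.89, Trp53bp2 at 26.5 ± 3.00, Mdm4 at 24.6 ± 4.32 and Mdm2 at 22.0 ± 2.84 TPM (SD, n = 6), and each of these lay within 1 SD of its neighbour. Ppm1d followed at 9.71 ± 0.744 TPM, below every floxed library of these 4. Atm at 6.13 ± 2.45, Chek2 at 5.11 ± 0.891 and Trp53bp1 at 5.01 ± 1.20 TPM were again within the spread of each other, and Trp53-ps at 2.32 ± 1.02 TPM was lowest. In deleted crypts Trp53, at 4.78 ± 1.01 TPM, had moved from the head of this order to the level of Trp53bp1, which was at 5.66 ± 1.35 TPM. Chek2 had 9.65 ± 4.26 TPM there, close to Ppm1d at 10.7 ± 1.51 TPM.

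The pathway around the members was read from 6 lists with 94 genes in the table, of which 90 were tested. The lists were chosen with earlier results of these data known, so their counts beside the share of all genes are a description only. For the deletion averaged over CBP genotypes 14 of the 90 were called, against the 3.50% of all genes given above. This count was 9 without CBPWTp53-floxed replicate 1, CBPAAp53-floxed replicate 3 or CBPWTp53ΔIEC replicate 3, and 8 without CBPWTp53-floxed replicate 3. It was 20 without the 4 libraries with small-intestinal transcripts, against 11.1% of all genes. None of the 2 tested relatives of Trp53bp2 was called, with Ppp1r13b (ASPP1) at -0.08 and Ppp1r13l (iASPP) at 0.03 on the log2 scale, 0 of them by DESeq2 and 0 at an unadjusted p under 0.05. Among 17 partners of MDM2 and MDM4 and other p53 ligases and deubiquitinases 0 were called (median log2 fold change -0.03, that of all genes tested 0.01), 0 by DESeq2 and 5 had an unadjusted p under 0.05 in edgeR. The most different of them were Mtbp, an MDM2-binding protein, at 0.63 (interval 0.13 to 1.13, edgeR adjusted p = 0.140), and Usp10, which removes ubiquitin from p53, at 0.35 (interval 0.14 to 0.55, edgeR adjusted p = 0.0521). In the fit without the 4 libraries 1 of the 17, Mtbp, was called higher on average and within CBPWT mice.

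Of 14 kinases that act on p53 and their partners, 3 rose and 0 fell, with a list median of 0.04. Plk1, a kinase of mitosis, rose from 8.02 TPM on average in floxed crypts to 31.0 TPM in deleted crypts (log2 fold change 1.85, edgeR adjusted p = 0.0172). Aurka, the centrosomal Aurora kinase, rose from 4.64 to 17.3 TPM (1.81, adjusted p = 0.0144 from edgeR). Chek1, the kinase of the replication checkpoint and the counterpart of Chek2, rose from 1.66 to 3.71 TPM (1.08, edgeR adjusted p = 0.0220). In a list of 14 genes around ATM and 53BP1 at DNA breaks 4 rose and 0 fell, with a median of 0.21. Not all genes of this list activate ATM or recruit 53BP1. The 4 were Brca1 (1.63) and its partner Bard1 (1.57), H2ax (1.06), the histone variant that ATM phosphorylates at breaks, and Topbp1 (0.65), an activator of the kinase ATR, on the log2 scale, with edgeR adjusted p of 0.0117 to 0.0307. These 7 genes are expressed in dividing cells. They rose in the same averaged comparison as the 20 proliferation genes, whose part was not tested.

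Of 14 enzymes that acetylate, deacetylate or methylate p53 and of their relatives 0 were called in the averaged comparison by edgeR or DESeq2 and 2 had an unadjusted p under 0.05 in edgeR, with a median of -0.10. Kat2b, an acetyltransferase, was at -0.39 (interval -0.63 to -0.15, edgeR adjusted p = 0.0636) and Setd7, a methyltransferase, at -0.28 (interval -0.47 to -0.09, edgeR adjusted p = 0.0874). Within CBPWT mice DESeq2 called 1 of the 14 lower, Kat2b. With the 4 libraries left out edgeR called Kat2b lower on average and within each CBP genotype, and Setd7 within CBPAA mice only, and 7 of the 14 had an unadjusted p under 0.05 on average. Among 29 tested p53 target genes other than the members, 7 fell and 0 rose, with a median of -0.16. Eda2r, a receptor of the TNF family, was 0.596 to 0.951 TPM in floxed and 0 to 0.0653 TPM in deleted crypts. Phlda3, an inhibitor of AKT, was 1.02 to 2.56 TPM and 0 to 0.370 TPM. The epoxide hydrolase Ephx1 fell from 20.5 to 5.95 TPM and the secreted stress factor Gdf15 from 4.23 to 1.68 TPM, in means over 6 mice. Smaller log2 fold changes, -0.61 to -0.54, were those of Plk2, the cyclin Ccng1 and Trp53inp1. Mdm2 and Ppm1d, whose levels are given above, differed by less than any of these 7. Without the 4 libraries with small-intestinal transcripts 11 of the 29 fell, and the counts of kinases and of ATM and 53BP1 genes that rose were again 3 and 4. With all libraries but within CBPWT mice, 7 target genes fell, and 3 kinases and 3 genes of the ATM and 53BP1 list rose. Within CBPAA mice 2 target genes fell and 0 genes of those 2 lists rose in edgeR, where 0.0274% of all genes were called. Without the 4 libraries, which leaves 1 CBPAAp53ΔIEC library, the median log2 fold change within CBPAA mice was -0.32 for the target genes. It was -0.00 for the kinases, 0.27 for the ATM and 53BP1 list and 0.00 for all genes tested. A difference between the CBP genotypes was not tested for the lists.

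The genes whose levels varied most like Trp53 over the 12 libraries, by Pearson's r of log2 CPM among 14601 other genes, were Eda2r (0.953), Oplah (0.943), Ctsf (0.938), Pbxip1 (0.936) and Cyp2d9 (0.923). The 12 points share the step between floxed and deleted mice, and all 5 genes were lower in deleted crypts, with log2 fold changes of -5.14 to -0.35. Those most like Mdm2 were Rbm4b (0.953), Jag1 (0.946), Cish (0.917), Get1 (0.904) and Clk4 (0.897), whose averaged log2 fold changes lay between -0.02 and 0.11. The r values are descriptions over libraries that share groups and differ in depth.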

How the data were processed

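RNA of colonic crypts of 12 mice was measured, 3 per group, and groups were read from the labels. Per the labels, libraries were made with a stranded TruSeq mRNA kit. The submitters' processing notes name fastp 0.20.0, FastQC 0.11.9, HISAT2 2.1.0, SAMtools 1.9 and featureCounts of Subread 2.0.1, and the build GRCm38; the strand setting is not given in the sources used here. The authors deposited raw read counts per gene, and TPM, which divide by gene length and scale to a sum of 1000000 per library. The deposited columns of 5 comparisons by the authors, which hold a log2 fold change, a p-value and an adjusted p-value per gene, were not used. The counts were tested with edgeR 4.0.16 in R 4.3.3 (filterByExpr with a minimum count of 10, TMM, robust quasi-likelihood fit of 4 groups over 12 libraries), with Benjamini-Hochberg adjustment over 14610 genes within each of 7 contrasts. Genes with a log2 fold change over 0.5 in size at an adjusted p under 0.05 were called. Standard errors came from the F statistic, and 95% intervals from it and the fit's degrees of freedom. For Trp53 TPM, exact permutation tests (two-sided, scipy 1.17.1) were run. Total counts of 11177430 to 18029125 set the precision, which for genes of few reads such as Trp53-ps is low. The binomial intervals and the floor for Trp53-ps pooled the reads of 3 mice per group. They therefore cover counting error only and leave out the spread between mice. Reads carried no molecular identifiers.

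Gene positions came from GENCODE vM21, where 55230 of the listed identifiers were found, and upstream sequences from RefSeq. Each mouse is 1 animal, so replicates are biological. No pairing of the samples by replicate number was seen. The members and lists were chosen with earlier results of these data known. Named were all 9 members, the called genes of each pathway list (at most 8) or otherwise its 2 most different genes, the 5 genes most like Trp53 and Mdm2, and Crebbp. Alternatives were DESeq2 1.42.0, DESeq2's size factors, no filter, the replicate block, each library left out, 2 groups only and no fold cutoff; the fit without 4 libraries (Apoa1 over 100 TPM and Defa17 over 10 TPM) was added after seeing the data. The edgeR and DESeq2 fits were tested on simulated data. Figures were drawn with matplotlib 3.10.9.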

Additional observations from a re-analysis of the deposited data

How the results depend on the processing

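Trp53 was called for the deletion under every alternative run, and its remaining level lay between 14.3% and 17.8%, with each library left out between 15.8% and 17.8%. Of the 9 members, 1 to 3 were called in CBPWT and 1 to 3 in CBPAA mice with each library left out. With all libraries 2 and 1 were called, the deleted gene itself among them, where 3.15% and 0.0274% of all genes were called. Without the filter 2 members were called in CBPAA mice. The share of all genes is not given for the fits without 1 library or without the filter. Their counts are therefore no result about the members. Of the other pathway genes 8 to 16 were called with each library left out, against 14. No member was called for CBP genotype or its interaction under any alternative.

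Same-numbered samples of different groups deviated from their group means with correlations of -0.526 to 0.548 (median -0.033 over 18 pairs), so no pairing by number was seen. Such correlations cannot show that mice were not matched by litter, day or batch. With the replicate number as a block 1 member was called in CBPWT mice, Trp53-ps having an edgeR adjusted p of 0.0640, and the other counts of members called were as without the block.

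Several differences near 0, none of them called, changed sign. Without the 4 libraries the averaged log2 fold change of Mdm2 was 0.08, those of Mdm4 and Trp53bp1 in CBPWT mice were 0.01 and 0.11, those of Trp53bp2 and Atm in CBPAA mice were -0.15 and -0.06, and the interaction of Chek2 was 0.19. Without the filter the average of Mdm4 was -0.01. With each library left out, the averages ranged from -0.08 to 0.04 for Mdm2, -0.05 to 0.09 for Mdm4 and -0.28 to 0.07 for Atm. In CBPWT mice Mdm4 ranged from -0.27 to 0.01 and Trp53bp1 from -0.17 to 0.11. In CBPAA mice Ppm1d ranged from -0.03 to 0.12, Trp53bp2 from -0.06 to 0.14 and Atm from -0.10 to 0.59. The interaction ranged from -0.15 to 0.42 for Trp53 and from -0.29 to 0.32 for Chek2. The cause was not tested. Few reads limit Trp53-ps, and 3 mice per group limit every interval.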
